A study of Mus musculus with 6 samples.

Results

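The interferon regulatory factors (IRFs) are a family of transcription factors that share a DNA-binding domain. The 8 family genes described here, Irf1, Irf2, Irf3, Irf4, Irf5, Irf7, Irf8 and Irf9, were taken by their gene symbols from the 24421 symbols of the count table, and their values were compared between young and aged liver endothelial cells (ECs). All 8 passed the filter on low counts, which left 14612 genes for the test. The cells were sorted by flow cytometry as CD31+CD45- cells from livers of C57BL/6J mice with the genotype WT, CD31 being an endothelial surface protein and CD45 the pan-leukocyte protein that the sort was meant to leave out. The young group consisted of 3 samples from mice of 10 weeks, and the aged group of 3 samples from mice of 127, 131 and 136 weeks, named here by those weeks. RNA came from 50000 sorted cells per sample, the mice of the study were female, and no group carried an engineered allele or received a treatment. Whether a sample came from a single mouse is not given in the sources used here, so that p-values measure the spread between the samples.

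IRFs connect the sensing of viruses and cytokines with transcription. Irf3 and Irf7 lie dormant in the cytoplasm until sensors of foreign nucleic acid lead to their phosphorylation, and then switch on the genes of type I interferons. Irf9 joins STAT proteins in the complex ISGF3, through which type I interferons act on the cell. Irf1 is switched on by interferon gamma and inflammatory cytokines and activates genes of antigen presentation, chemokines and adhesion, while Irf2 binds the same DNA elements and can hold such genes back. Irf4, Irf5 and Irf8 are best known from leukocytes, Irf4 from lymphocytes and plasma cells, Irf5 from macrophages and dendritic cells, and Irf8 from the development of monocytes and dendritic cells. In the liver, the sinusoidal endothelium lines the smallest vessels and meets microbial products that arrive from the gut.

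Total counts ran from 23001556 to 31651817 per sample, so that 3 counts stood for 0.0948 to 0.130 CPM, the unit of counts scaled by library size (with TMM factors in the values that follow). Lars2 and Rn45s, symbols that collect ribosomal RNA reads, took 1.29% of the counts of young sample 3, 0.960% of those of the 127-week sample and 4.68% to 5.53% of those of each remaining library, so differences within these library groups are given for the members fitted higher in aged ECs. Pecam1, which encodes CD31, had a similar CPM in young (1369 to 1589) and aged samples (1366 to 1635), whereas Stab2, a scavenger receptor of sinusoidal ECs, lay between 2901 and 3198 in young samples and at 504, 1759 and 542 in the 127-, 131- and 136-week samples. Of 15 endothelial markers, these 2 among them, 3 were fitted higher in aged ECs and 12 lower. Their median log2 fold change was -0.63, and -0.47 without the 136-week sample. All aged samples lay below all young samples for 9 of the 15 and above them for 0, against 8.33% and 9.62% of all genes tested. For Ptprc, the gene of CD45, CPM values were 1.56, 1.17 and 1.70 in young sample 1, 2 and 3, and 7.56, 1.28 and 25.6 in the aged samples. In such bulk samples, a larger number of cells of a type and more RNA per cell cannot be told apart.

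Irf1 was by far the most abundant family transcript in liver ECs of either age. On the per-length scale of FPKM, its mean level was 361 ± 106 for the young and 1026 ± 382 for the aged samples (SD, n = 3 each). In the young ECs Irf7 (63.8 ± 21.9), Irf9 (58.3 ± 6.78) and Irf8 (43.9 ± 8.99) followed at a similar FPKM, then Irf3 (25.9 ± 2.14) and Irf2 (21.7 ± 3.21), and far below these Irf5 (0.751 ± 0.372) and Irf4 (0.294 ± 0.110). The neighbours Irf7 and Irf9, Irf9 and Irf8, and Irf3 and Irf2 had FPKM ranges that overlapped between the young samples. Within each young sample, however, Irf9 was above Irf8 and Irf3 above Irf2, while Irf7 was above Irf9 in 2 of the 3. The step from Irf2 to Irf5 was the widest, with a 29.0-fold difference of the mean FPKM. In the aged ECs the order was Irf1, Irf7 (161 ± 177), Irf8 (70.1 ± 39.9), Irf9 (56.5 ± 19.5), Irf3 (21.1 ± 3.95), Irf2 (17.0 ± 3.85), Irf5 (2.70 ± 2.72) and Irf4 (0.695 ± 0.579). There the neighbours Irf7 and Irf8, Irf8 and Irf9, Irf3 and Irf2, and Irf5 and Irf4 overlapped. The leukocyte-associated members thus split in level, since Irf8 stood among the well expressed members and Irf4 and Irf5 stood at the bottom in both groups.

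**Figure D1:**
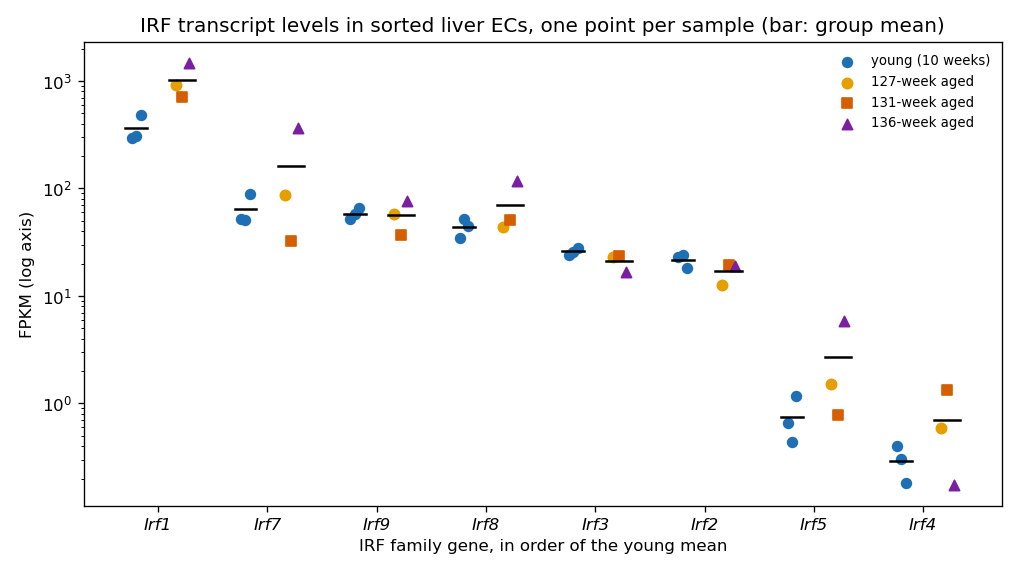
FPKM of the 8 IRF genes on a log axis, with 1 point per sample and a bar at the mean of each group of 3; genes are ordered by the young mean. Irf1 stands above every other family gene in all 6 samples, Irf4 and Irf5 stand lowest, and the 136-week sample is the highest of the aged samples for Irf1, Irf5, Irf7, Irf8 and Irf9.

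The comparison of the ages asks whether family transcripts differ between young and aged liver ECs. None of the 8 genes passed an adjusted p below 0.05 with a log2 fold change beyond 1 in edgeR's quasi-likelihood test. The same was true of every gene tested (0% called higher and 0% lower, smallest adjusted p = 0.0735 in edgeR), although 1847 genes (12.6%) had an unadjusted p below 0.05. In DESeq2, 1 of the 8 genes, Irf1, was called higher in aged ECs and none lower, against 2.77% of genes called higher and 0.54% called lower. An unadjusted edgeR p below 0.05 with the same fold limit was met by 2 of the 8 genes, Irf1 and Irf5, both higher, against 5.43% of genes higher and 1.19% lower. Aged and young CPM values did not overlap for 1 of the 8 genes, Irf1, which was higher in all aged samples. Over all genes tested, the groups did not overlap for 17.9%, with the aged samples above for 9.62% and below for 8.33%. By direction of the fit, 5 members were higher in aged ECs (Irf1, Irf4, Irf5, Irf7 and Irf8) and 3 lower (Irf2, Irf3 and Irf9). The median log2 fold change of the members was 0.95, and that of all genes tested was 0.0098. Without the 136-week sample, the fits were 1.69 for Irf4, 1.16 for Irf1, 0.63 for Irf5 and 0.12 for Irf8. They were -0.073 for Irf7, -0.12 for Irf3, -0.29 for Irf9 and -0.43 for Irf2, with 0.0060 as the median of all genes. The median of the members thus depended on the 136-week sample.

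**Figure D2:**
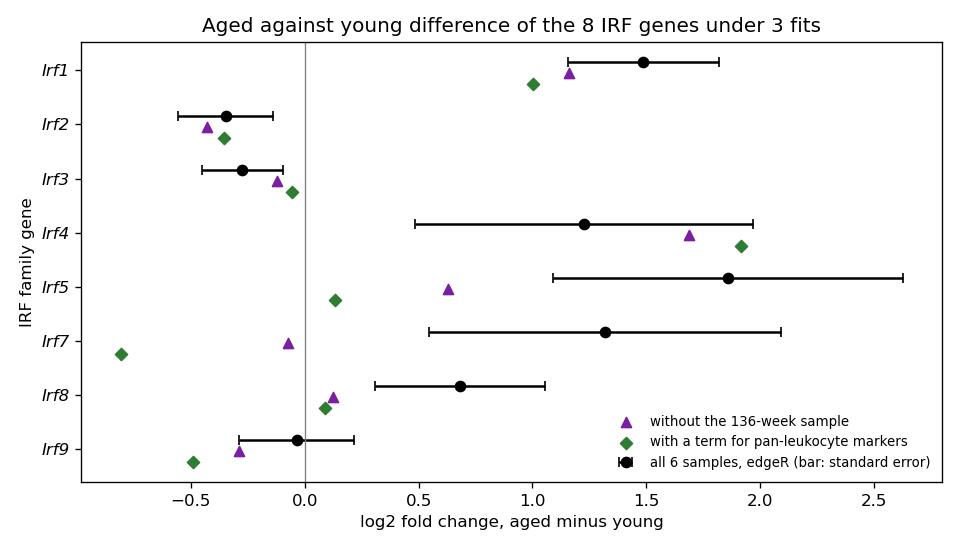
log2 fold change of aged minus young for each IRF gene from edgeR with all 6 samples (circles, bars of 1 standard error), without the 136-week sample (triangles) and with a term for pan-leukocyte markers (diamonds). Irf1 stays at or above 1.00 in all 3 fits, Irf5 and Irf8 lie close to 0 with the leukocyte term, and Irf7 goes from 1.32 to -0.81.

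Irf1 (chromosome 11, 53583516 to 53591876 of mm9, plus strand), the activator of antigen presentation and adhesion genes, was the member whose CPM separated the ages. Its CPM was 599, 629 and 1006 in the young samples and 1882, 1446 and 2934 in the 127-, 131- and 136-week samples. Each aged sample lay above each young sample, as for 9.62% of all genes tested, and young sample 3 was the highest of the young. The fitted log2 fold change was 1.49 (standard error 0.33), a 2.80-fold ratio of mean CPM, with an adjusted p of 0.232 in edgeR and of 0.000897 in DESeq2. The difference was 1.75 on the log2 scale within the 4 libraries with many Lars2 and Rn45s counts and 0.90 between young sample 3 and the 127-week sample, the libraries with few. Without the 136-week sample the log2 fold change was 1.16 (adjusted p = 0.387 in edgeR). In FPKM the exact permutation test gave p = 0.1, the smallest that 3 samples against 3 allow (two-sided).

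The rank of Irf1 shows how high this level was. Among 24346 symbols ordered by FPKM within a sample, Irf1 stood at 325, 295 and 128 in the young samples and at 43, 92 and 36 in the 127-, 131- and 136-week samples. Of the summed FPKM of the 8 family genes, Irf1 held 61.0%, 59.3% and 66.2% in the young samples and 80.2%, 81.2% and 70.9% in the aged samples. This share did not overlap between the ages. As Irf1 made up most of the sum, that separation is not independent of the separation of Irf1 itself. The share was lower in the 136-week sample, where the sum of the family was largest (2047 FPKM), than in the other aged samples (1142 and 877).

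Irf2 (chromosome 8, 47825099 to 47932812, plus strand), which competes with Irf1 for its DNA elements, did not follow it. Its CPM was 55.8, 57.4 and 42.6 in the young samples and 30.6, 46.4 and 45.4 in the aged samples. The lowest young sample, young sample 3, lay below 2 of the aged samples, so the groups overlapped. The fitted log2 fold change was -0.35 (standard error 0.21), with an adjusted p of 0.551 in edgeR. The ratio of Irf1 to Irf2, in FPKM, was 12.6, 12.9 and 26.7 in the young samples and 72.9, 36.5 and 76.5 in the 127-, 131- and 136-week samples. Every aged ratio was above every young one. As Irf1 itself separated the ages and Irf2 varied less, this is not a result apart from that of Irf1. The share of gene pairs whose ratios separate the ages was not counted.

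Promoter sequences were read to see which elements of interferon and inflammatory signalling lie close to the starts of these genes, since Irf1 and Irf8 are known targets of STAT factors. RefSeq promoter windows of the build GRCm38.p6, from 250 bases before to 50 after a transcript start, were found for all 8 genes (11 windows). They were searched on both strands for the GAS element bound by STAT dimers (TTCNNNGAA), the ISRE bound by IRFs and ISGF3 (GAAANNGAAA) and the kB motif bound by NF-kB. Of all 32851 windows, 8.30% held the GAS element, 3.44% the ISRE, 8.46% the kB motif and 0.639% both GAS and kB. Matches were found in windows of Irf1, Irf2 and Irf8, and none in those of Irf3, Irf4, Irf5, Irf7 and Irf9. The runs that hold them are printed because Irf1 is the member whose CPM separated the ages and Irf2 and Irf8 are the other members with matches. Capitals mark the matched letters, and in the Irf2 window the first match is the ISRE and the second the GAS element.
Irf1, chr11:53769904-53770013, plus strand: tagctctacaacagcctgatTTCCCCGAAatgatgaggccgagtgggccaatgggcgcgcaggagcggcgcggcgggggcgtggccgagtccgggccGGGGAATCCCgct
Irf2, chr8:46739495-46739539, plus strand: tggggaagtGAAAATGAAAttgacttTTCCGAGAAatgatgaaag
Irf2, chr8:46739715-46739744, plus strand: gggcgggggtgggGGGGATTTCCagcctcg
Irf8, chr8:120736178-120736227, plus strand: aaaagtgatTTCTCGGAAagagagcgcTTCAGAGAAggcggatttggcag

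In the Irf1 window the GAS element began 90 bases upstream of the start and the kB motif 13 bases upstream. The Irf8 window held a pair of GAS elements, 171 and 153 bases upstream, and 0.457% of all windows held 2 or more. The Irf2 window held all 3 motifs, as did 16 of all windows (0.0487%). These matches describe the letters of the reference genome only, since binding was not measured in these samples.

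**Figure D3:**
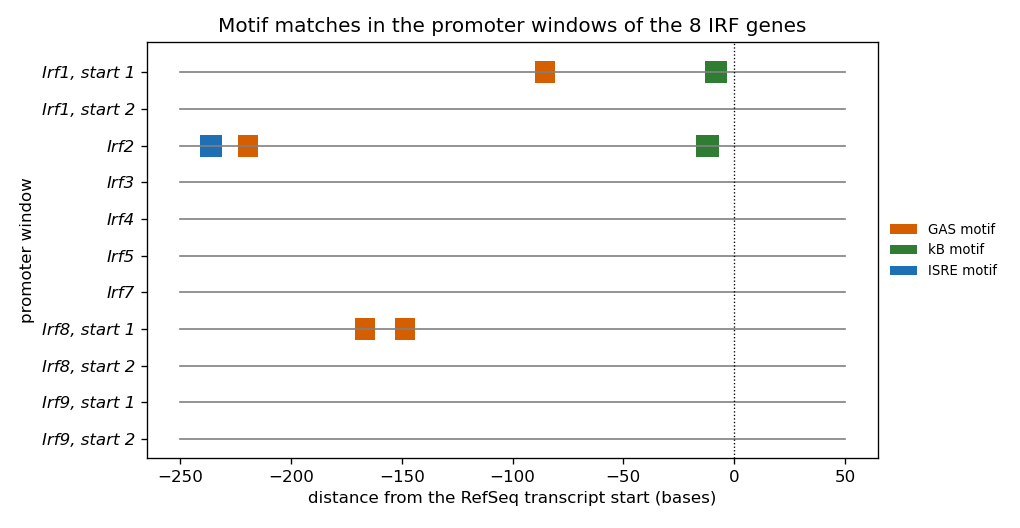
Positions of the GAS, kB and ISRE motifs in the 11 promoter windows of the 8 IRF genes, as distance in bases from the RefSeq transcript start. Matches lie in the first window of Irf1, in the window of Irf2 and in the first window of Irf8, and the other 8 windows hold none.

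Irf3 and Irf7, the factors that act directly downstream of nucleic acid sensors, behaved differently from each other. Irf3 (chromosome 7, 52253018 to 52258218, plus strand) is present in most cells without induction. Its CPM was 46.3, 49.7 and 55.1 in the young samples and 46.1, 46.4 and 32.4 in the aged samples. The values were close to each other apart from the lower 136-week sample, and the groups overlapped in CPM, where young sample 1 lay just below the 131-week sample. In FPKM, by contrast, the aged values (23.2, 23.6 and 16.6) were all below the young values (23.8, 25.8 and 28.1). The gap was narrow, from 23.6 in the 131-week sample to 23.8 in young sample 1. Any gene separated in this way has the smallest possible p of the exact permutation test (p = 0.1, two-sided). The share of all genes separated in FPKM was not counted. The fitted log2 fold change was -0.27 (standard error 0.18, adjusted p = 0.584 in edgeR). The separation of the ages for Irf3 therefore depended on the unit.

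Irf7 (chromosome 7, 148448605 to 148452380, minus strand), itself an interferon-induced gene, varied more among the aged samples than any other member in FPKM. Its CPM was 88.6, 84.5 and 155 in the young samples and 152, 55.8 and 612 in the 127-, 131- and 136-week samples. The 131-week sample was the lowest of all 6 and the 136-week sample the highest, an 11.1-fold range in FPKM within the aged group. Irf7 was fitted 1.32 higher in aged ECs on the log2 scale (standard error 0.77, adjusted p = 0.543 in edgeR), a value that became -0.073 without the 136-week sample and -0.81 with a term for pan-leukocyte markers. It was 1.09 within the libraries with many Lars2 and Rn45s counts and -0.028 between those with few, and 1.31 with a term for the library group. The 136-week sample is among the libraries with many such counts, so its share in this difference and that of the library group cannot be told apart. Irf7 ranked at 239 by FPKM in the 136-week sample and from 966 to 2718 elsewhere. The ratio of Irf7 to Irf3, in FPKM, was 2.19, 1.95 and 3.17 in the young samples and 3.74, 1.39 and 21.8 in the aged samples.

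Irf9 (chromosome 14, 56222408 to 56228867, plus strand), the DNA-binding subunit of ISGF3, showed no separation of the ages. Its CPM was 118, 133 and 150 in the young samples and 132, 86.2 and 172 in the aged samples. The 131-week sample was the lowest and the 136-week sample the highest of all 6, as for Irf7 but over a narrower range. The log2 fold change was -0.035 (standard error 0.25, adjusted p = 0.976 in edgeR), and its sign changed with total-count scaling (0.029). Stat2, the subunit through which Irf9 is held in ISGF3, had a log2 fold change of 0.046, and its groups overlapped.

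Among the leukocyte-associated members, Irf8 (chromosome 8, 123260258 to 123280594, plus strand) was the only one well expressed in these cells. Its CPM was 95.3, 145 and 124 in the young samples and 123, 141 and 320 in the 127-, 131- and 136-week samples. The 127- and 131-week samples lay within the young range, and only the 136-week sample lay above it. The log2 fold change was 0.68 (standard error 0.37, adjusted p = 0.511 in edgeR), and 0.12 without the 136-week sample. Within the libraries with many Lars2 and Rn45s counts it was 0.85, and between those with few it was -0.014.

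Irf5 (chromosome 6, 29476625 to 29491869, plus strand) had the largest fitted difference of the 8 genes, from low counts. It had 37, 20 and 74 counts in the young samples and 90, 43 and 298 in the aged samples, or a CPM of 1.38, 0.902 and 2.33 against 3.09, 1.67 and 12.1. The exact Poisson interval of the 136-week value was 10.8 to 13.6 CPM (95%, counting error only), above every other sample, while the 131-week sample lay within the young range. The log2 fold change was 1.86 (standard error 0.77, adjusted p = 0.383 in edgeR), and it was among those with an unadjusted p below 0.05. Without the 136-week sample it was 0.63, and it was 1.69 within the libraries with many Lars2 and Rn45s counts and 0.34 between those with few. Of the exon bases of Irf5, 14.2% overlap exons of Tnpo3 on the other strand, and whether counting used the strand is not given in the sources used here, so part of these reads may belong to Tnpo3. For the other members the overlap with exons of another gene was at most 3.40% (Irf1).

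Irf4 (chromosome 13, 30841095 to 30858796, plus strand) was, of the 5 members fitted higher in aged ECs, the one that was not highest in the 136-week sample. It had 55, 31 and 26 counts in the young samples and 80, 165 and 20 in the 127-, 131- and 136-week samples, or a CPM of 2.05, 1.40 and 0.820 against 2.75, 6.42 and 0.812. The 131-week value (exact Poisson interval 5.47 to 7.47 CPM, 95%) was the highest of all 6 samples and the 136-week value the lowest. The log2 fold change was 1.23 (standard error 0.74, adjusted p = 0.553 in edgeR). It was 0.33 without the 131-week sample (adjusted p = 0.874 in edgeR), and 1.69 without the 136-week sample (adjusted p = 0.508 in edgeR). In the latter set both remaining aged samples lay above all young samples. Fewer samples separate more easily, and the share of all genes separated in this set was not counted. It was 0.45 within the libraries with many Lars2 and Rn45s counts and 1.30 between those with few.

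The aged samples were not alike in their IRF profile. Of the 8 genes, 5 (Irf1, Irf5, Irf7, Irf8 and Irf9) had their highest CPM of all 6 samples in the 136-week sample. The share of all genes that were highest there was not counted, so this is not read as a trait of the family. On the scale of log2(CPM + 0.5), the 136-week sample lay above the young mean by 2.69 for Irf5, 2.53 for Irf7, 2.02 for Irf1, 1.42 for Irf8 and 0.37 for Irf9. In the 127-week sample Irf1 was 1.38 above the young mean and Irf7 0.53, and Irf2 was 0.74 below it. The 131-week sample had Irf1 1.00 above the young mean, with Irf7 0.91 and Irf9 0.62 below it. Irf1 was thus above the young range in each aged sample, also where Irf7 and Irf9 were below theirs.

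**Figure D4:**
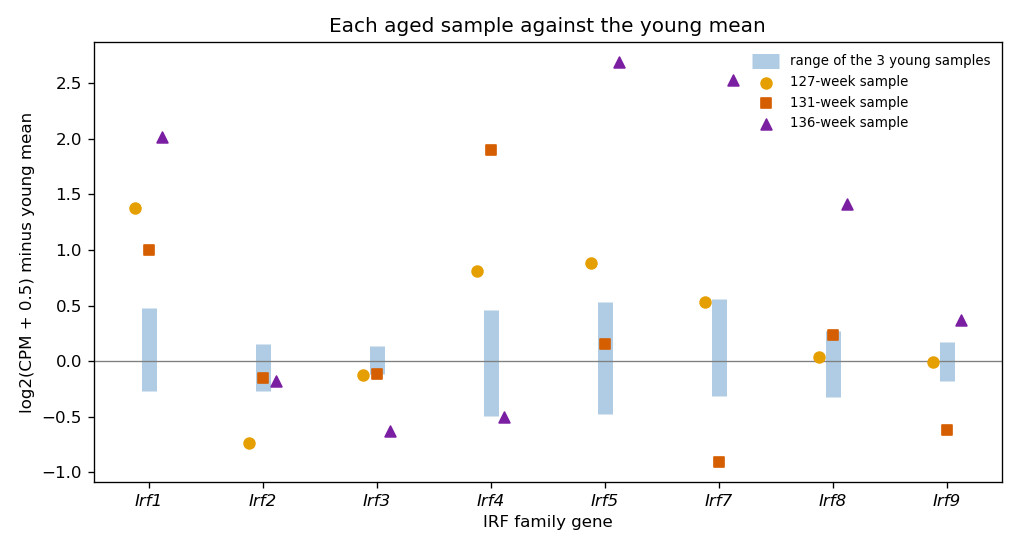
Difference of each aged sample from the young mean on the scale of log2(CPM + 0.5), for the 8 IRF genes; bars show the range of the 3 young samples. For Irf1 all 3 aged samples lie above the bar, while for Irf7 the 131-week sample lies below it and the 136-week sample far above.

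Leukocyte transcripts moved with some of these values. The mean log2(CPM + 1) of 10 pan-leukocyte markers was 3.29, 2.91 and 3.05 in the young samples and 3.98, 2.97 and 5.27 in the 127-, 131- and 136-week samples. Of the 10 markers 9 were fitted higher in aged ECs. Their median log2 fold change was 2.14, and 0.58 without the 136-week sample. The summed CPM of 12 Kupffer cell and macrophage markers was 128, 130 and 142 in the young samples and 242, 40.8 and 557 in the aged samples. Like Irf7, it was lowest in the 131-week sample and highest in the 136-week sample. The summed CPM of 12 T and NK cell markers was 12.7 to 21.1 in the young samples and 30.2, 17.3 and 78.0 in the aged samples. Of 10 B cell markers, Pax5 was at 0 counts in all 6 samples, and the sum was 2.89 to 6.44 CPM in young and 4.74, 4.98 and 14.4 in aged samples. Plasma cell markers (46.6 to 139 in young, 106, 120 and 185 in aged samples) and dendritic cell markers (107 to 138 in young, 127, 117 and 108 in aged samples) overlapped between the ages in their sums, which single genes dominated. Sdc1 held most of the plasma cell sum (44.0 to 132 CPM in young and 101, 118 and 169 in aged samples) and Zbtb46, also known from ECs, most of the dendritic sum (94.2 to 112 CPM in young and 110, 104 and 68.2 in aged samples). Among the others, the plasma cell gene Jchain had 0.158 to 2.79 CPM in young and 1.72, 0.311 and 11.9 CPM in aged samples, and the dendritic gene Ccr7 0.496 to 1.48 CPM in young and 3.99, 1.36 and 22.4 CPM in aged samples. Both were among the markers highest in the 136-week sample, 3 of the 4 tested for plasma cells and 4 of the 10 for dendritic cells. In the fit, 7 of the dendritic markers went up in aged ECs and 3 went down. The middle value of their fits was 0.28, and 0.11 without the 136-week sample, so Ccr7 does not stand for the dendritic list. None of these sums was highest in the 131-week sample, where Irf4 was highest.

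A term for the mean of the pan-leukocyte markers moved the members in different directions. With it the log2 fold change was 1.00 for Irf1 (adjusted p = 0.619 in edgeR), 0.087 for Irf8, 0.13 for Irf5 and -0.81 for Irf7, all below their values without the term. Irf9 was lower too, at -0.49, while Irf4 was higher, at 1.92. Irf2 (-0.35) differed little from its value without the term, and Irf3 (-0.055) was nearer to 0. The part of leukocyte RNA in the values of the 8 genes was not tested.

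The genes most like a member in pattern were those with the smallest root mean square difference of log2(CPM + 1), each centred on its own mean, over the 6 samples among 10223 genes with a mean CPM of at least 5. For Irf1 these were Atf3 (0.15), a stress-induced transcription factor, Icam1 (0.17), a leukocyte adhesion receptor, Odc1 (0.17), the first enzyme of polyamine synthesis, Mb21d1 (0.21), the cytosolic DNA sensor cGAS, and Kdm6b (0.22), a histone demethylase. The same measure of the spread of Irf1 itself was 0.83. Icam1, for example, had a CPM of 425, 609 and 691 in the young samples and 1517, 1266 and 2309 in the aged samples. As these genes were picked for their likeness over the same 6 samples, a highest or lowest sample shared with the member follows from the choice.

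The genes nearest to Irf5 were Isg15 (0.12), a ubiquitin-like protein induced by interferon, Frzb (0.13), a secreted Wnt antagonist, Plek (0.13), a protein of platelets and leukocytes, Ctss (0.21), a lysosomal protease of antigen-presenting cells, and the potassium channel Kcnk5 (0.24). For Irf7 they were Tyrobp (0.30), a signalling adaptor of myeloid cells, Csf1r (0.30), the receptor that macrophages depend on, Oasl1 (0.32), an interferon-induced gene that restrains Irf7 translation, Ctsc (0.32), a lysosomal protease of leukocytes, and Ctss (0.33). Csf1r had a CPM of 8.63, 7.54 and 11.5 in the young samples and 21.2, 3.38 and 54.0 in the aged samples. For Irf8 they were Akap12 (0.12), Tcf15 (0.14), Zfp46 (0.15), Rgs2 (0.16) and Rasgef1b (0.16). Akap12, a scaffold protein, had a CPM between 200.4 and 259 in 5 samples and of 671 in the 136-week sample.

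The wider IRF pathway was followed through lists of genes, ordered from sensors to targets. Over all genes tested, aged CPM lay above young without overlap for 9.62% and below for 8.33%. DESeq2 called 2.77% higher and 0.54% lower. Above and below without overlap were 1 and 1 of 22 activators, 0 and 1 of 9 receptor, JAK and STAT genes, and 2 and 1 of 13 partners. These counts were 2 and 0 of 25 Irf1 targets, 1 and 1 of 27 ISGF3 targets, and 3 and 2 of 20 inhibitors. Of 22 tested activators of Irf3, Irf5 and Irf7 (nucleic acid sensors, toll-like receptors, their adaptors and kinases), 15 were fitted higher and 7 lower (median log2 fold change 0.12), and DESeq2 called 1, Mb21d1, higher. Without the 136-week sample, 10 of the 20 activators then tested were fitted higher and the median was -0.020. Mb21d1 had a CPM of 10.3, 8.44 and 18.4 in the young samples and 23.2, 25.6 and 44.4 in the aged samples (log2 fold change 1.32, standard error 0.37, adjusted p = 0.256 in edgeR and 0.0249 in DESeq2). Tlr4, the receptor for bacterial lipopolysaccharide, did not overlap in the other direction, with 40.2 to 54.8 CPM in young and 25.9, 36.2 and 33.2 CPM in aged samples (log2 fold change -0.56). Interferon ligand transcripts were scarce. Of 18 interferon ligand genes 14 had 0 counts in all 6 samples, and the type II ligand Ifng had no count in the young and 131-week samples, 6 counts in the 127-week sample and 16 in the 136-week sample.

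Interferon receptor, JAK and STAT genes were divided, with 4 fitted higher and 5 lower of 9, a median of -0.015, and none called by DESeq2. Jak1, a kinase at both interferon receptors, lay below the young range in all aged samples (1040, 1288 and 1312 CPM against 1484 to 2338, log2 fold change -0.61, adjusted p = 0.350 in edgeR). Among 13 partners and co-regulators of IRFs, 7 were fitted higher and 6 lower, with a median of 0.28, which was -0.017 without the 136-week sample and -0.10 with the leukocyte term. DESeq2 called 2 of them higher, Batf, the partner of Irf4 and Irf8 at composite elements, and Ikzf3, a lymphocyte zinc finger factor. Batf had a CPM of 6.25, 6.77 and 9.37 in the young samples and 12.3, 17.8 and 15.6 in the aged samples (log2 fold change 1.03, standard error 0.25, adjusted p = 0.235 in edgeR and 0.0137 in DESeq2). Batf thus had its highest value in the 131-week sample, as Irf4 did. Ikzf3 was at 0.0744 to 0.158 CPM in young (2, 3 and 5 counts) and 1.27, 0.467 and 1.83 CPM in aged samples (37, 12 and 45 counts). It passed the filter on low counts only through the 127- and 136-week samples, so its call is tied in part to the filter. Ets1, an endothelial and lymphoid transcription factor, was below the young range in all aged samples (log2 fold change -0.48, adjusted p = 0.385 in edgeR).

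Of 25 known Irf1 target genes, 20 were fitted higher and 5 lower (median log2 fold change 0.32), and 17 of 25 were fitted higher without the 136-week sample (median 0.13, and -0.025 with the leukocyte term). DESeq2 called Vcam1 and Cxcl10 higher and none lower. Vcam1, an adhesion receptor for leukocytes, had a CPM of 840, 951 and 875 in the young samples and 1630, 1917 and 2632 in the aged samples (log2 fold change 1.21, standard error 0.22, adjusted p = 0.193 in edgeR and 3.56e-05 in DESeq2). Cxcl10, a chemokine for T cells, lay at 173, 178 and 566 CPM in young and 851, 550 and 1484 CPM in aged samples, so that the groups overlapped through young sample 3. Trim21, an intracellular antibody receptor, did not overlap but differed little, with 28.0 to 31.0 CPM in young and 31.9 to 35.8 CPM in aged samples.

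Of 27 ISGF3 target genes, 21 were fitted higher and 6 lower, with a median of 0.34. Without the 136-week sample 11 of 27 were fitted higher and the median was -0.098, and with the leukocyte term it was -0.36. For 21 of the 27 the highest value of all 6 samples was in the 136-week sample, as for Irf7 and Irf9. So it was for 17 of the 25 Irf1 targets and 8 of the 10 pan-leukocyte markers, but for 1 of the 9 receptor, JAK and STAT genes and 2 of the 15 endothelial markers. The share of all genes highest in that sample was not counted. Oas3, an antiviral enzyme and the one gene of this list called by DESeq2, had 0.558, 0.135 and 0.662 CPM in the young samples and 1.86, 0.817 and 10.5 CPM in the aged samples. Ifi27 was below the young range in all aged samples (log2 fold change -0.28). Whether the target genes of Irf1 and of ISGF3 differ in their response to age was not tested.

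Of 20 inhibitors of interferon and IRF signalling, 10 were fitted higher and 10 lower, with a median of 0.083 (-0.011 without the 136-week sample), and DESeq2 called 2 higher. These were Tnfaip3, the ubiquitin-editing enzyme A20 that limits NF-kB and IRF activation, and Socs3, an inhibitor of cytokine receptors. Tnfaip3 had a CPM of 59.9, 83.0 and 99.9 in the young samples and 263, 237 and 721 in the aged samples (log2 fold change 2.33, standard error 0.46, adjusted p = 0.193 in edgeR and 3.29e-05 in DESeq2). Socs3 had a CPM of 868, 1025 and 940 in the young samples and 1256, 1795 and 2682 in the aged samples. Dusp1, a phosphatase of MAP kinases, lay below the young range in all aged samples (3692 to 4028 CPM against 5181 to 5247), with a log2 fold change of -0.41, and so did Nlrx1, a mitochondrial NOD-like receptor (-0.45).

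**Figure D5:**
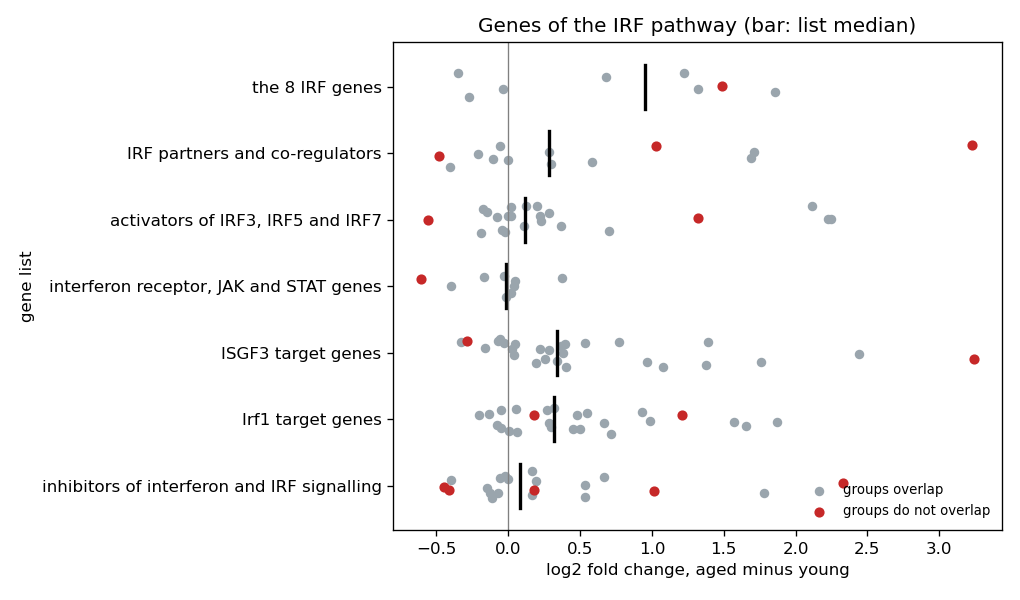
log2 fold change, aged minus young, of the 8 IRF genes and of the tested genes of 6 lists of the pathway; each point is a gene, red where aged and young CPM do not overlap, and the black bar is the median. The medians of the lists of targets and partners lie between 0.28 and 0.34 (without the 136-week sample 0.13 for Irf1 targets, -0.017 for partners and -0.098 for ISGF3 targets), and receptor, JAK and STAT genes centre on 0.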

How the data were processed

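Sorted CD31+CD45- liver ECs were measured by RNA-seq in 3 young and 3 aged samples. The authors called bases with CASAVA (1.8.2), aligned the single-end reads of 75 bases against mm9 with TopHat2 (2.1.0) and deposited counts per gene symbol, without normalization. The FPKM values were computed by the authors with Cuffnorm (2.2.1). The counting program, its annotation and its use of strand are not given in the sources used here. Genes that reached a CPM of 0.5 in any sample were retained, scaled by TMM (factors 0.963 to 1.11) and compared with edgeR (4.0.16, R 4.3.3) by the quasi-likelihood test, with Benjamini-Hochberg adjustment over all 14612 genes, 0.05 as the threshold and a required log2 fold change beyond 1. The script was tested on simulated data. Alternatives were DESeq2 (1.42.0), limma (3.58.1) with voom weights or run on log2 FPKM after adding 0.1 or 1, other scalings and filters, the removal of each sample, and terms for the library group and for leukocyte markers. FPKM values of single genes were compared by exact permutation (two-sided). Poisson intervals cover counting error only, as no molecular identifiers were used.

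The members, the lists and the tests were chosen with earlier results of these data known. Named genes are the 8 members, the 5 genes nearest in pattern to Irf1, Irf5, Irf7 and Irf8, and from each list up to 4 genes whose aged and young values do not overlap, the largest log2 fold change first. Cxcl10, Stat2 and Ifng were named after their values were seen, and some genes of the family and the lists are not reported here. Gene positions are those of GENCODE for mm9, and promoter windows are those of RefSeq for GRCm38.p6. No column of fold changes or p-values by the authors was used.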

Additional observations from a re-analysis of the deposited data

How the results depend on the processing

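Irf1 was fitted higher in aged ECs under all 19 alternatives, with log2 fold changes from 1.00 to 1.77 and adjusted p-values from 0.000897 to 0.625. It passed the threshold in DESeq2 (1.48, adjusted p = 0.000897) and by the unadjusted edgeR p (1.49), and Irf5 passed by the latter (1.86), so that 1 and 2 members were called, respectively. The number of genes called higher and lower was 395 and 77 in DESeq2, 13 and 2 with limma-voom, 3 and 1 with no filter on low counts, 1 and 1 with limma on log2(FPKM + 0.1) and on log2(FPKM + 1), 1 and 0 with no filter on FPKM, 1 and 1 with the library group term, 5 and 10 with the leukocyte term, and 793 and 174 by unadjusted p. Without each sample in turn, 0 to 1 genes were called higher (1 without the 131-week sample) and 0 lower. Irf7 was fitted lower with the leukocyte term (-0.81), and between -0.073 and 1.803 without each sample in turn. Irf9 was fitted higher with total counts (0.029), and lay between -0.29 and 0.19 without each sample in turn, higher without young sample 3 (0.056) or the 131-week sample (0.19). With the leukocyte term, Ctss (-0.034), Tyrobp (-0.68), Csf1r (-0.79), Oasl1 (-0.33), Ctsc (-0.15) and Rasgef1b (-0.00257) were fitted lower, and Rasgef1b also without the 136-week sample (-0.053, with a range up to 0.94 without each sample in turn). The cause of these differences was not tested. The number of members with all aged above all young samples was 1, and 2 without young sample 3, the 131-week or the 136-week sample. The number with all aged below all young samples was 0, and 1 without young sample 1, young sample 3 or the 131-week sample. Fewer samples separate more easily, and the share over all genes was not counted for these reduced sets. The log2 ratio of mean FPKM of Irf1 was 0.92 between the libraries with few Lars2 and Rn45s counts. No paired analysis was run, as nothing in the labels pairs a young with an aged sample. With 3 samples per group an exact permutation p cannot go below 0.1, and the values of Irf4 and Irf5 rest on 20 to 298 counts.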
